A study of Homo sapiens with 9 samples.

Results

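Chromosome 19, which carries more genes per megabase than any other human chromosome, was set against chromosome 18, a gene-poor chromosome of similar size, for the binding of the transcription factor ZNF143, the architectural protein CTCF and the cohesin subunit RAD21. Peaks were assigned by the chromosome named in each of the 9 deposited peak lists and by nothing else. Chromosome 19 held 15159 of the 358587 peaks in the whole series (all lists and all sequences), and chromosome 18 held 6896. The assay was ChIP-nexus, in which immunoprecipitated chromatin is digested by exonucleases that stop where a crosslinked protein blocks them, so that binding is located finely. All cells were HEC-1-B, a human uterine adenocarcinoma line, or lines derived from it: wild-type cells (ZNF143, CTCF and RAD21), ZNF143KO cells (CTCF and RAD21), and CTCF-AID cells, whose CTCF is tagged for degradation by auxin (IAA), at 0 h and at 24 h of auxin (CTCF and ZNF143 at each time). Each group had 1 library, so no difference between genotypes or times has a replicate check. Whether each derived line is a single clone was not given in the sources used here. The loss of ZNF143 and of CTCF protein was taken from the labels, and no ZNF143 library of the knockout was analysed here.

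ZNF143 is a zinc-finger activator that binds promoters, among them those of many housekeeping genes and of small nuclear RNA genes. CTCF binds its own DNA motif at promoters, enhancers and insulators, and stops the cohesin ring, of which RAD21 is a part, as the ring extrudes chromatin loops. Chromosome 19 is known for its high GC content, its many housekeeping promoters and its long clusters of zinc-finger genes, and it lies towards the interior of the nucleus, whereas chromosome 18 lies towards the nuclear periphery.

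The gene annotation bore out the label. With protein-coding genes of RefSeq (GRCh38.p14) counted per Mb of the span covered by the peak lists, chromosome 19 had 1451 genes, or 24.5 per Mb, and ranked 1 of 23 chromosomes (1 to 22 and X). Chromosome 18 had 270 genes, or 3.46 per Mb, and ranked 22. The median of the other 21 chromosomes was 5.64 per Mb. The spans, taken as the highest peak end in any list, were 59.1 Mb for chromosome 19 and 78.0 Mb for chromosome 18.

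Promoter motifs were counted as background to the peaks. In RefSeq promoter sequences (GRCh38.p14, 1 promoter for each protein-coding gene, from 250 bases before to 50 after the start), 1185 promoters lay on chromosome 19 and 234 on chromosome 18. Letters of 2 parts of the ZNF143 motif and of the core of the CTCF motif were searched on both strands. ACTACAA, a part of the ZNF143 motif, was found in 38 promoters of chromosome 19 (3.21%, exact 95% interval 2.28 to 4.38), in 1 of chromosome 18 (0.427%, 0.0108 to 2.36) and in 3.15% of all 15811 promoters. The adjoining part, CCCAG followed by any base and ATGC, was found in 14 promoters of chromosome 19 (1.18%) and 4 of chromosome 18 (1.71%), against 0.923% of all promoters. AGGNGGC, a short stretch of the CTCF motif, was found in 45.1% of promoters on chromosome 19 (42.2 to 47.9), 38.5% on chromosome 18 (32.2 to 45) and 42.1% overall. For each of the 3 motifs the intervals of the 2 chromosomes overlapped, and no test was run. Chromosome 19 held a larger number of promoters with each motif, out of 1185 promoters against 234. The median GC content of these promoters was 63.0% on chromosome 19, 65.3% on chromosome 18 and 62.7% over all promoters.

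A promoter with both parts of the ZNF143 motif side by side was found for 1 of 1185 genes of chromosome 19 (0.0844%), ZNF628, a zinc-finger gene, and for 0 of 234 genes of chromosome 18, which allows a share of up to 1.56% (exact 95% limit). Over all promoters it was found for 23 of 15811 (0.145%), so chromosome 19 was not above the overall share. All sites of chromosome 18 with either part are shown with it, so that the element itself can be read on both chromosomes. Capitals mark the motif, and each site is written 5′ to 3′ on the strand that carries it, with coordinates on GRCh38.p14. The chromosome 18 genes are AQP4 (a water channel), TCF4 (a basic helix-loop-helix transcription factor), SEC11C (a signal peptidase subunit), CYB5A (cytochrome b5) and C18orf63. The peaks are on hg19, so whether a peak lies on any of these sites was not determined.
ZNF628, chr19:55476484-55476512, plus strand: ggagaACTACAACTCCCAGGATGCcgcgc
AQP4, chr18:26866014-26866042, minus strand: gcccaatttcaACTACAAcatataaccaa
TCF4, chr18:55636024-55636053, plus strand: tactgtgtaaCCCAGCATGCtgttggcatt
SEC11C, chr18:59139728-59139757, minus strand: aactaccactCCCAGAATGCtgcggggtgg
CYB5A, chr18:74292100-74292129, plus strand: cgtggtcccgCCCAGTATGCgggtgttaat
C18orf63, chr18:74315741-74315770, minus strand: cctgcgctctCCCAGCATGCcctgcaagcc

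Chromosome 19 was the most densely occupied chromosome for all 3 proteins in every list, and ZNF143 showed the widest gap to chromosome 18. In wild-type cells ZNF143 had 2026 peaks on chromosome 19 and 678 on chromosome 18, or 34.3 and 8.69 per Mb, a ratio of 3.94. CTCF had 1959 and 1033 peaks, or 33.1 and 13.2 per Mb, a ratio of 2.50. RAD21 had 1730 and 1027 peaks, or 29.3 and 13.2 per Mb, a ratio of 2.22. ZNF143 thus had the largest ratio of the 3. The exact binomial test of each against the length of the chromosomes, with Benjamini-Hochberg adjustment over 31 comparisons, gave adjusted p-values of 3.6e-246, 8.5e-133 and 1.0e-94. Such p-values compare 2 chromosomes within 1 library. They treat peaks as independent, which neighbouring peaks are not, and are therefore too small.

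**Figure D1:**
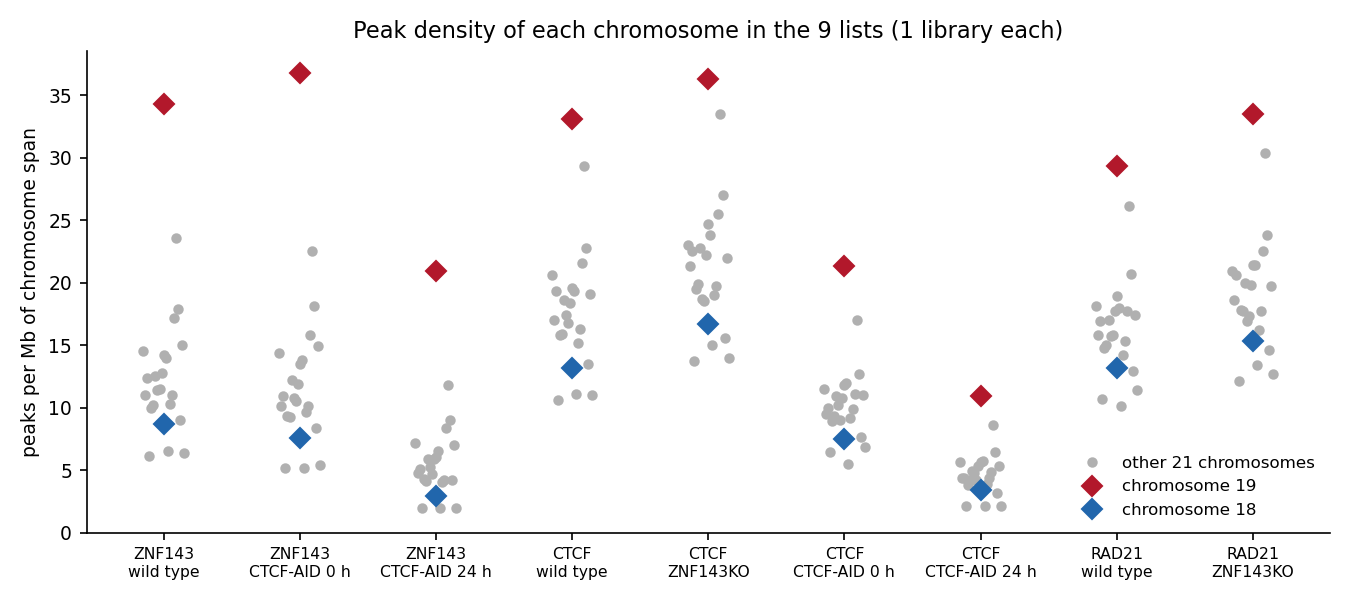
Peaks per Mb of chromosome span (y axis) in each of the 9 lists (x axis), with chromosome 19 as red diamonds, chromosome 18 as blue diamonds and each of the other 21 chromosomes as a grey point. Chromosome 19 is the highest point in all 9 lists, from 10.9 to 36.8 peaks per Mb, and chromosome 18 ranks 19 or 20 of 23.

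Chromosome 19 was also denser in the derived lines. In ZNF143KO cells the ratio of densities was 2.18 for CTCF (36.3 against 16.7 per Mb) and 2.19 for RAD21 (33.5 against 15.3 per Mb). In CTCF-AID cells at 0 h it was 4.86 for ZNF143 (36.8 against 7.58 per Mb) and 2.85 for CTCF (21.3 against 7.46 per Mb). At 24 h of auxin it was 7.12 for ZNF143 (20.9 against 2.94 per Mb) and 3.22 for CTCF (10.9 against 3.40 per Mb). Hence ZNF143 had the larger ratio wherever ZNF143 and CTCF were both profiled. Counted over the 100 kb windows that held any peak (542 windows on chromosome 19, 614 on chromosome 18), the ratios ran from 1.87 to 6.11 over the 9 lists.

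Chromosome 18 was not the emptiest chromosome. It ranked 20 of 23 for wild-type ZNF143 and CTCF and 19 for RAD21, with chromosomes such as 4 (6.12 ZNF143 peaks per Mb) and 13 (10.1 RAD21 peaks per Mb) below it. Chromosome 17, the next most gene-dense, was the nearest to chromosome 19, at 23.6 ZNF143, 29.3 CTCF and 26.1 RAD21 peaks per Mb. Neighbouring ZNF143 summits of the wild type lay a median 13.9 kb apart on chromosome 19 and 56.7 kb apart on chromosome 18. For CTCF the median spacing was 15.1 and 41.4 kb, and for RAD21 it was 18 and 41.1 kb. On chromosome 19, ZNF143 was thus the most closely spaced of the 3 proteins, and on chromosome 18 the most widely spaced.

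Local background was higher on chromosome 19 in every list, and signal in some. The deposited signal, a fold enrichment over local background, had a median of 12.2 for wild-type ZNF143 on chromosome 19 and 8.99 on chromosome 18. Its form, inferred from the values, adds a constant to both summit count and background, so at low background the signal largely follows the count. For wild-type ZNF143 the median summit count was 17 on chromosome 19 and 10 on chromosome 18, over median backgrounds of 0.394 and 0.186. The signal is thus not a plain ratio of summit to background. Of the chromosome 19 peaks 19.1% were among the strongest 10% of that list by signal, and of the chromosome 18 peaks 4.87%. For CTCF the medians were 15.9 and 14.3, and for RAD21 13.4 and 13.2. In the wild type the ratio of the medians was thus 1.35 for ZNF143, 1.11 for CTCF and 1.01 for RAD21. In the other 6 lists it ran from 0.944 (ZNF143KO RAD21) to 1.21 (24 h ZNF143), with 1.07 for 0 h ZNF143, so that higher density did not go with higher signal in every list. The local background under each peak, solved from the deposited ratio and p-value, had a median 2.12 times as high on chromosome 19 as on chromosome 18 for wild-type ZNF143, 1.70 times for CTCF and 1.25 times for RAD21. Over all 9 lists this ratio ran from 1.25 to 2.12. The part of background in the densities was not tested.

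Over 10 Mb windows density ranged more widely along chromosome 19 than along chromosome 18. In 10 Mb windows the ZNF143 density of chromosome 19 ran from 9.10 to 55.5 per Mb (median 38.5 of 6 windows), and that of chromosome 18 from 5.90 to 12.1 per Mb (median 8.74 of 8 windows). The lowest window of chromosome 19 was 20000001 to 30000000, which includes the centromere. It held 91 ZNF143, 125 CTCF and 121 RAD21 peaks, so that its densities, 9.10, 12.5 and 12.1 per Mb, lay within the range of chromosome 18 windows. The highest window, 40000001 to 50000000, held 555 ZNF143, 506 CTCF and 416 RAD21 peaks. The other 5 windows of chromosome 19 each exceeded every window of chromosome 18 for all 3 proteins.

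At 1 Mb, the fullest ZNF143 window of chromosome 19 was 49000001 to 50000000, with 90 ZNF143, 58 CTCF and 52 RAD21 peaks, 55 of the ZNF143 peaks having no CTCF peak. The adjoining window, 50000001 to 51000000, had the most CTCF peaks, 71, with 75 ZNF143 and 61 RAD21 peaks. The first window of chromosome 18 had the most CTCF peaks there, with 28 ZNF143, 34 CTCF and 33 RAD21 peaks. Its lead was clear for CTCF only, since the window 18000001 to 19000000 held 27 ZNF143 peaks and the window 46000001 to 47000000 held 33 RAD21 peaks. The median 1 Mb window held 37.5 ZNF143 peaks on chromosome 19 (60 windows, quartiles 18.5 and 46.0) and 7 on chromosome 18 (79 windows, quartiles 4 and 13). Relative to the median, the quartiles were thus further apart on chromosome 18.

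The balance between the proteins also differed. On chromosome 19 there were 1.03 wild-type ZNF143 peaks for each CTCF peak and 1.17 for each RAD21 peak. On chromosome 18 the values were 0.656 and 0.660. Chromosome 19 was the only chromosome of the 23 on which ZNF143 peaks outnumbered CTCF peaks or RAD21 peaks in the wild type. The ratio to CTCF was 1.58 times as high on chromosome 19 as on 18, and the ratio to RAD21 1.77 times (adjusted p of 1.5e-14 and 6.5e-22, Fisher's exact test, two-sided). A site with a peak in both lists entered both counts, and the test does not take this pairing into account. In CTCF-AID cells ZNF143 peaks per CTCF peak came to 1.73 on chromosome 19 and 1.02 on chromosome 18 at 0 h, and to 1.91 and 0.864 at 24 h. Ratios of peak numbers depend on the depth of both libraries, so their size is comparable between chromosomes of a pair of lists and not between pairs of lists.

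**Figure D2:**
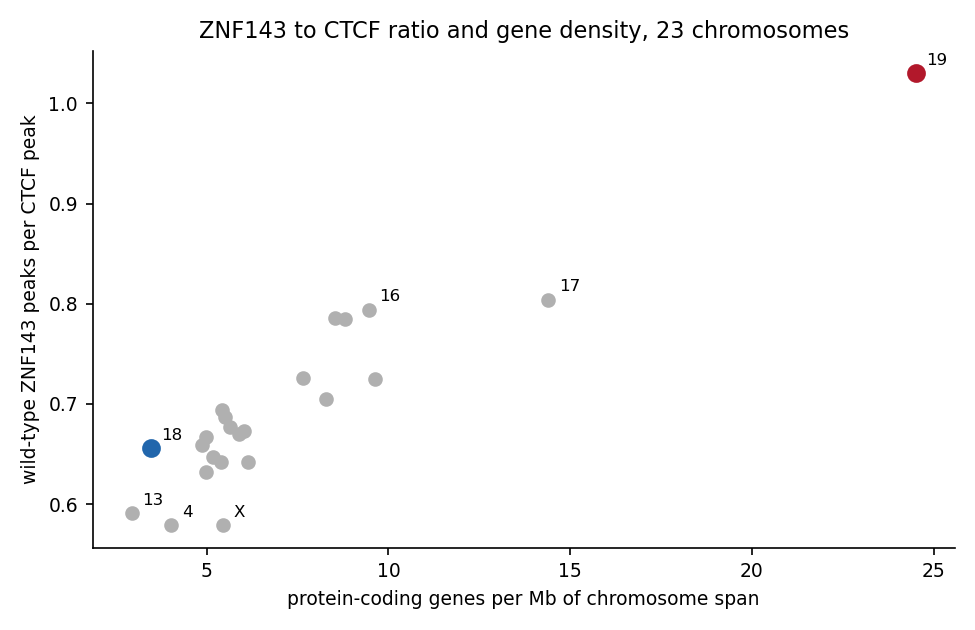
Wild-type ZNF143 peaks per CTCF peak (y axis) against protein-coding genes per Mb of span (x axis), with 1 point for each of 23 chromosomes, chromosome 19 in red and chromosome 18 in blue. Chromosome 19 is at 24.5 genes per Mb and a ratio of 1.03, and the highest of the others is chromosome 17, at 14.4 genes per Mb and 0.804.

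Across the other 21 chromosomes, which share the same libraries and differ in base composition as well as in genes, the ratio of ZNF143 to CTCF peaks rose with gene density, with a Pearson's r of 0.848 and a Spearman's rho of 0.826, given as a description. For peaks per Mb the r was 0.913 for ZNF143, 0.874 for CTCF and 0.878 for RAD21. Chromosome 18 ranked 16 of 23 in its ratio of ZNF143 to CTCF, close to the median of the other 21, 0.673. It was thus chromosome 19 that lay outside the others in this ratio, and not chromosome 18.

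The excess of ZNF143 on chromosome 19 lay to a large part at sites without CTCF. Of the wild-type ZNF143 peaks, 907 of 2026 on chromosome 19 had no overlapping CTCF peak (44.8%, exact 95% interval 42.6 to 47.0), against 140 of 678 on chromosome 18 (20.6%, 17.7 to 23.9). Over chromosomes 1 to 22 and X the share was 26.9%. The difference was 24.1 percentage points (Newcombe 95% interval 20.3 to 27.7, adjusted p = 3.7e-30 by Fisher's exact test). Chromosome 19 had the highest share of the 23 chromosomes and chromosome 18 the lowest. The other 21 ran from 21.6% on chromosome X to 35.4% on chromosome 16.

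Most of these CTCF-free peaks lacked cohesin as well. On chromosome 19, 860 ZNF143 peaks (42.4%) overlapped neither CTCF nor RAD21, 1083 (53.5%) overlapped both, 36 (1.78%) CTCF only and 47 (2.32%) RAD21 only. On chromosome 18, 123 (18.1%) overlapped neither, 527 (77.7%) both, 11 (1.62%) CTCF only and 17 (2.51%) RAD21 only. The shares with a single partner were thus small and similar on both chromosomes, and the contrast lay between sites with both partners and sites with neither. For the share with neither, 24.9% over chromosomes 1 to 22 and X, the difference was 24.3 points (20.6 to 27.8, adjusted p = 1.1e-31, Fisher's exact test). Per Mb, peaks with neither partner came to 14.5 on chromosome 19 and 1.58 on chromosome 18, and peaks with both to 18.3 and 6.75.

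**Figure D3:**
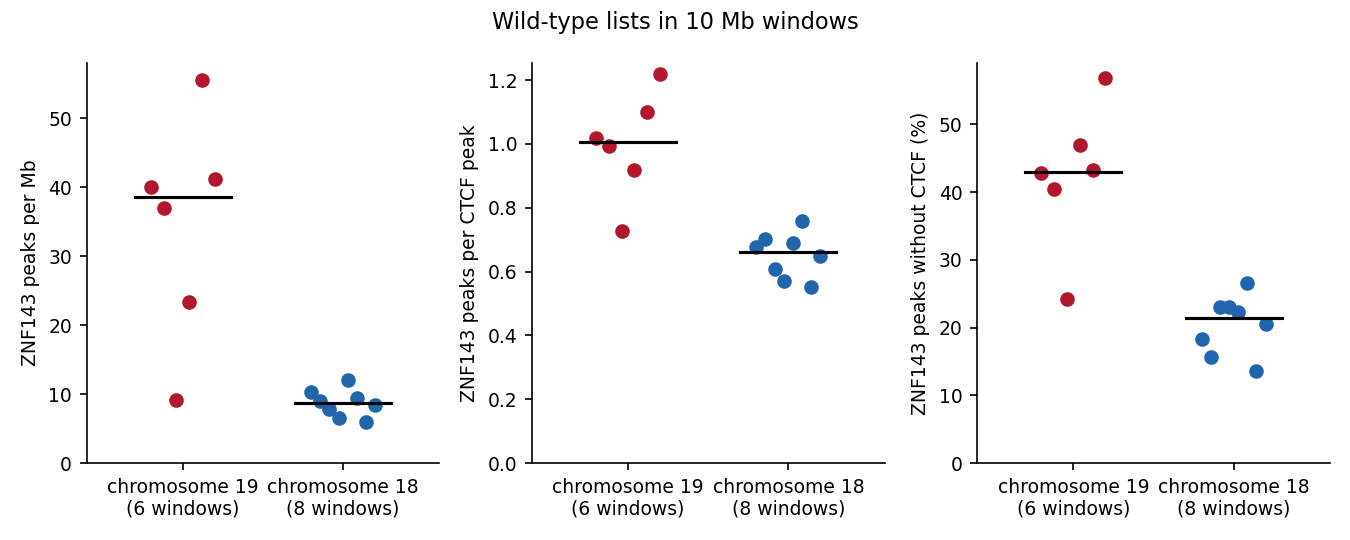
Wild-type ZNF143 peaks per Mb, ZNF143 peaks per CTCF peak and the share of ZNF143 peaks without CTCF in percent (y axes), with 1 point for each 10 Mb window of chromosome 19 (red, 6 windows) and chromosome 18 (blue, 8 windows), and the median as a line. In each panel 1 window of chromosome 19 lies within the range of chromosome 18, and the other 5 lie above it.

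In the window of chromosome 19 that includes the centromere 24.2% of ZNF143 peaks had no CTCF, within the 13.6% to 26.6% of chromosome 18 windows, and there were 0.728 ZNF143 peaks for each CTCF peak, within 0.551 to 0.758. The megabase at 27000001 to 28000000 held 46 of the 91 ZNF143 peaks, 7 of them without CTCF. In the other 9 Mb 15 of 45 had no CTCF (33.3%, 20 to 49), above the windows of chromosome 18, while the ratio was 0.570 and the density 5 per Mb. The share of this window thus depended on that megabase. In the last window of chromosome 19, from 50000001 to the end, 56.9% had no CTCF and the ratio was 1.22, the highest of all 14 windows in both.

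The contrast between the chromosomes depended on signal. The wild-type ZNF143 list was divided by signal into 5 groups of equal size, from 1 (weakest) to 5 (strongest). The share without CTCF in group 1 was 58.4% on chromosome 19 (177 of 303) and 24.1% on chromosome 18 (49 of 203). In group 3 it was 28.4% and 9.15%, and in group 4 it was 23.7% and 11.9%. In group 5 it was 58.8% on chromosome 19 (386 of 656, 55.0 to 62.6) and 62.1% on chromosome 18 (41 of 66, 49.3 to 73.8), with overlapping intervals. Among the peaks of group 5, only 66 of them on chromosome 18, no difference between the chromosomes was detectable. CTCF-free sites were frequent there on both. In the stronger 50% of the whole list the difference was 18.2 points (42.2% against 24.0%, adjusted p = 4.9e-08, Fisher's exact test). Chromosome 19 had 32.4% of its ZNF143 peaks in group 5 and chromosome 18 had 9.73%.

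In the CTCF-AID line at 0 h, 1258 of 2178 ZNF143 peaks on chromosome 19 had no CTCF (57.8%, 55.7 to 59.8) and 223 of 591 on chromosome 18 (37.7%, 33.8 to 41.8), against 43.9% over chromosomes 1 to 22 and X. The difference, 20 points (15.5 to 24.4, adjusted p = 1.1e-17, Fisher's exact test), had the direction of the wild type. With a reciprocal overlap of 50% the difference was -3.68 points at 0 h and 8.76 points in the wild type. The median width was 99 bp for 0 h ZNF143 and 167 bp for 0 h CTCF on chromosome 19. On chromosomes 1 to 22 and X the 0 h CTCF list held 30374 peaks, against 52982 in the wild-type list. Sites without a CTCF peak at 0 h can thus include sites that had one in the wild type.

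Single sites were named by their signal. The 2 strongest CTCF-free ZNF143 peaks of chromosome 19 lay at 14743218 to 14743352 and 10479226 to 10479366 (hg19), with signals of 35.2 and 34.9, and neither overlapped a peak of any CTCF or RAD21 list. At 0 h they had ZNF143 signals of 30.9 and 29.0, and at 24 h 25.5 and 26.4. On chromosome 18 the 2 strongest were at 34850132 to 34850280 and 54305807 to 54306027, with signals of 35.7 and 32.8. The first overlapped RAD21 peaks of both genotypes (8.59 in wild type, 10.2 in ZNF143KO) and the second none, and ZNF143 was called at both after 24 h, with signals of 28.7 and 25.9. All 4 sites thus had ZNF143 in all 3 ZNF143 lists and CTCF in none of the CTCF lists.

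Of the strongest ZNF143 peaks that did overlap CTCF, 3 of 4 had a ZNF143 peak at 24 h. On chromosome 19 they were at 10230574 to 10230707 (ZNF143 signal 30, CTCF 24.9) and 45582415 to 45582565 (29.7 and 7.83), and both had a ZNF143 peak at 24 h, with signals of 23.7 and 22.5. On chromosome 18 they were at 19494841 to 19494973 (25.3 and 21.4), with no ZNF143 peak at 24 h, and 10520234 to 10520349 (24.6 and 19.5), with a 24 h signal of 15.2. In CTCF-AID cells at 0 h no CTCF peak overlapped the second site of chromosome 19. At that time the first had a CTCF signal of 22.2, and the chromosome 18 sites had 7.68 and 21.4. At 24 h a CTCF peak overlapped only the first of these 4, with a signal of 7.82.

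CTCF and cohesin were compared with each other next. Of the wild-type CTCF peaks, 1115 of 1959 on chromosome 19 overlapped ZNF143 (56.9%, 54.7 to 59.1) and 534 of 1033 on chromosome 18 (51.7%, 48.6 to 54.8), against 50.6% over chromosomes 1 to 22 and X. RAD21 was found at 75.6% of CTCF peaks on chromosome 19 and 79.5% on chromosome 18 (76.4% over all), a difference of -3.88 points (-6.93 to -0.711, adjusted p = 0.0210, Fisher's exact test). RAD21 peaks without CTCF made up 14.2% on chromosome 19 (245 of 1730) and 20.1% on chromosome 18 (206 of 1027), against 17.2% over all, a difference of -5.90 points (-8.90 to -2.99, adjusted p = 9.4e-05, Fisher's exact test). Both were smaller than the ZNF143 difference. The share of CTCF peaks with RAD21 no longer differed past the threshold of 0.05 at a -log10 q of at least 5 (-2.33 points, adjusted p = 0.200, Fisher's exact test), with lists of equal size or with reciprocal overlap.

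Distances between summits were short on both chromosomes. CTCF and RAD21 summits of overlapping peaks lay a median 15 bp apart on chromosome 19 (1481 peaks) and 14 bp on chromosome 18 (821 peaks) in wild-type cells, and 13 and 12 bp apart in ZNF143KO cells. ZNF143 and CTCF summits of the wild type lay a median 10 bp apart on both chromosomes. In CTCF-AID cells they lay 9 bp apart on chromosome 19 and 11 bp on chromosome 18 at 0 h, and 13 bp (300 peaks) and 10 bp (80 peaks) at 24 h. These differences were not tested. The quartiles for wild-type CTCF and RAD21 on chromosome 19 were 6 and 29 bp.

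The knockout lists were used to ask which CTCF and cohesin sites remain without ZNF143. Nearly all did on both chromosomes. Of the wild-type CTCF peaks, 1805 of 1959 on chromosome 19 were kept, that is, overlapped by a CTCF peak of ZNF143KO cells (92.1%, 90.9 to 93.3), and 988 of 1033 on chromosome 18 (95.6%, 94.2 to 96.8), against 94.0% over chromosomes 1 to 22 and X. Chromosome 19 thus kept a smaller share of its CTCF peaks than chromosome 18, with a difference of -3.50 points (-5.18 to -1.70, adjusted p = 2.8e-04, Fisher's exact test). Both values lay within the range of the other 21 chromosomes, from 91.3% on chromosome 8 to 96.1% on chromosome 6. Chromosome 19 ranked 21 of 23 and chromosome 18 ranked 7. Over those 21 chromosomes the CTCF share had a Pearson's r of -0.160 and a Spearman's rho of 0.0442 with gene density. RAD21 was kept at 93.1% on chromosome 19 (1611 of 1730) and 92.4% on chromosome 18 (949 of 1027), against 92.3% over all. That difference, 0.716 points (-1.24 to 2.81), did not pass the test (adjusted p = 0.508, Fisher's exact test).

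**Figure D4:**
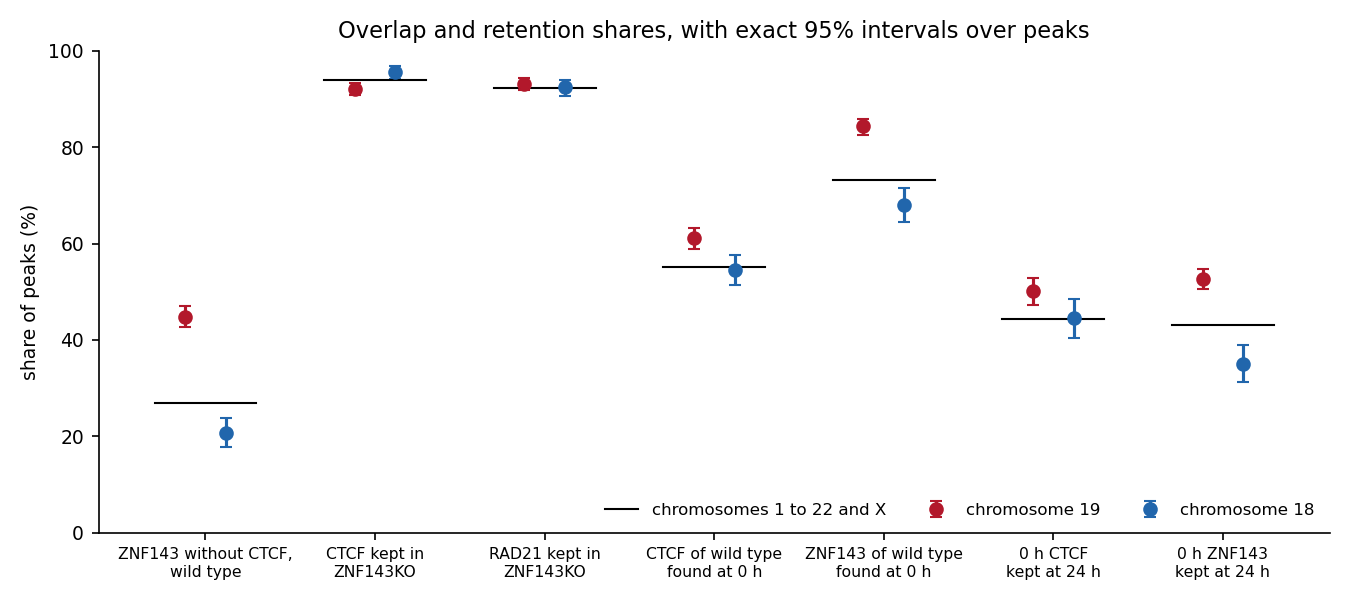
Shares of peaks in percent (y axis) for 7 overlaps (x axis) on chromosome 19 (red) and chromosome 18 (blue), with exact 95% intervals over peaks, and the value over chromosomes 1 to 22 and X as a line. The widest separations are in ZNF143: 44.8% against 20.6% without CTCF, 84.3% against 68.1% of wild-type peaks found at CTCF-AID 0 h, and 52.7% against 35.0% kept at 24 h.

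The CTCF peaks absent from the knockout were weak and mostly had no ZNF143. On chromosome 19 the 154 absent peaks had a median signal of 6.76 against 17.3 for the kept ones, and on chromosome 18 the 45 absent peaks had 6.49 against 14.9. Among CTCF peaks with a wild-type ZNF143 peak, 12 of 1115 were absent on chromosome 19 and 2 of 534 on chromosome 18. Among those without, 142 of 844 were absent on chromosome 19, leaving 83.2% kept (80.5 to 85.6), and 43 of 499 on chromosome 18, leaving 91.4% kept (88.6 to 93.7). Most absent CTCF peaks of both chromosomes thus had no ZNF143 peak, and these CTCF peaks were also weaker, with a median signal of 8.89 on chromosome 19 and 8.92 on chromosome 18 against 21.7 and 20.1 for those with ZNF143. The part of signal in this split was not tested.

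By signal group the CTCF difference lay in groups 1 and 2. In group 1, 67.6% were kept on chromosome 19 (255 of 377, 62.7 to 72.3) and 81.1% on chromosome 18 (167 of 206, 75 to 86.2). In group 2 they were 90.7% and 97.1%, and in groups 3 to 5 every peak of both chromosomes was kept. With signal standardised to the deciles of the whole list, the difference was -3.97 points (91.8% against 95.7%, adjusted p = 2.2e-05, exact stratified test). With a reciprocal overlap of 50% it was 1.44 points and did not pass the test (adjusted p = 0.373, Fisher's exact test).

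The knockout CTCF list also held peaks that the wild type lacked, and these took a smaller share on chromosome 19. They came to 343 of 2146 on chromosome 19 (16%, 14.5 to 17.6) and 317 of 1300 on chromosome 18 (24.4%, 22.1 to 26.8), against 21.6% over chromosomes 1 to 22 and X, a difference of -8.40 points (-11.2 to -5.63, adjusted p = 3.2e-09, Fisher's exact test). Both shares lay within the range of the other 21 chromosomes, from 15.2% on chromosome 8 to 29.3% on chromosome 13. Chromosome 19 ranked 22 of 23 and chromosome 18 ranked 5. Over those 21 chromosomes the share had a Pearson's r of -0.385 and a Spearman's rho of -0.277 with gene density. The number of CTCF peaks in ZNF143KO cells was 1.10 times that of the wild type on chromosome 19 and 1.26 times on chromosome 18. For RAD21 the added shares were 19.1% and 20.6% (20.9% over all), a difference of -1.48 points (-4.39 to 1.36, adjusted p = 0.332, Fisher's exact test). The solved local background of chromosome 19 peaks was higher in the knockout lists, with a median of 0.940 reads at the summit against 0.564 in the wild type for CTCF and 1.08 against 0.356 for RAD21. No knockout peak had a -log10 q below 5, whereas wild-type CTCF and RAD21 peaks went down to 3. With a -log10 q of at least 5 in both lists, the CTCF difference in added peaks was -7.81 points (adjusted p = 6.7e-08, Fisher's exact test). That in kept CTCF peaks was then -2.70 points (93.1% against 95.8%, adjusted p = 0.00406, Fisher's exact test). For RAD21 the 2 differences were -1.94 and -0.0874 points. The part of background in the added and absent peaks was not tested.

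Named sites show the range. The strongest wild-type CTCF peak of chromosome 19, at 28465022 to 28465125, had a signal of 31.2 in wild type and 24.7 in the knockout, with RAD21 at 23.5 and 15.5. That of chromosome 18, at 59850947 to 59851076, had CTCF signals of 32.2 and 22.1 and RAD21 signals of 28.1 and 19.8. The strongest CTCF peaks absent from the knockout were much weaker, with signals of 11.8 on chromosome 19 (46194515 to 46194558) and 11.4 on chromosome 18 (57383278 to 57383319), and neither overlapped a peak of any CTCF-AID list. For RAD21 the strongest peaks were at 17981198 to 17981375 of chromosome 19 (28.8, and 20.3 in the knockout) and 52901985 to 52902120 of chromosome 18 (28.9 and 20). The strongest RAD21 peaks absent from the knockout had signals of 9.45 on chromosome 19 (18891668 to 18891713) and 9.80 on chromosome 18 (814839 to 814868) and no wild-type CTCF or ZNF143 peak. In ZNF143KO cells the chromosome 18 site did overlap a CTCF peak, with a signal of 12.5, and the chromosome 19 site did not.

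Before the auxin comparison, wild-type peaks were sought in the CTCF-AID 0 h lists, the only pair of lists that differ in neither knockout nor auxin. Chromosome 19 was higher than chromosome 18 for both proteins. The highest of the other 21 chromosomes was chromosome 20 for ZNF143, at 78.0%, and chromosome 12 for CTCF, at 59.9%. Over those 21 chromosomes Pearson's r with gene density was 0.623 for ZNF143 and 0.0928 for CTCF. Of the wild-type ZNF143 peaks, 1707 of 2026 on chromosome 19 were found at 0 h (84.3%, 82.6 to 85.8) and 462 of 678 on chromosome 18 (68.1%, 64.5 to 71.6), against 73.1% over chromosomes 1 to 22 and X, a difference of 16.1 points (12.3 to 20, adjusted p = 5.6e-18, Fisher's exact test). For CTCF the shares were 61.1% and 54.5% (55.1% over all), a difference of 6.60 points (2.88 to 10.3, adjusted p = 6.6e-04, Fisher's exact test). Standardised to signal deciles, the ZNF143 difference was 4.96 points (80.0% against 75.1%, adjusted p = 0.00327, exact stratified test). The CTCF difference was then 2.85 points, not past the threshold (adjusted p = 0.0590, exact stratified test). A difference between these chromosomes in how often peaks were found again was thus present without any auxin.

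After 24 h of auxin, ZNF143 was kept more often on chromosome 19. Of the 0 h ZNF143 peaks, 1148 of 2178 on chromosome 19 overlapped a 24 h peak (52.7%, 50.6 to 54.8) and 207 of 591 on chromosome 18 (35.0%, 31.2 to 39.0), against 43.2% over chromosomes 1 to 22 and X. The difference was 17.7 points (13.2 to 22, adjusted p = 3.6e-14, Fisher's exact test). The difference between this value and the 16.1 points found without auxin was not tested. Chromosome 19 had the highest share of the 23 chromosomes, and chromosome 18 ranked 20. Standardised to signal deciles, the difference was 12.3 points, and standardised to signal and to overlap with 0 h CTCF together, an alternative chosen after the data were seen, it was 7.38 points (45.7% against 38.3%, p = 5.2e-05, exact stratified test).

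**Figure D5:**
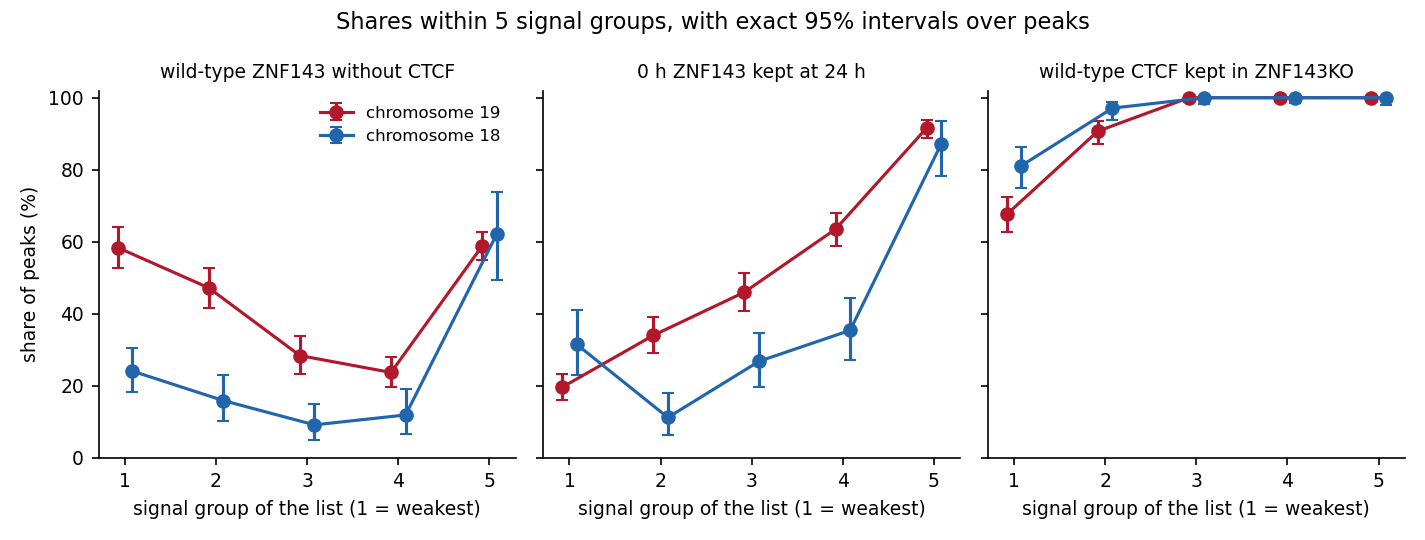
Share of wild-type ZNF143 peaks without CTCF, of 0 h ZNF143 peaks kept at 24 h and of wild-type CTCF peaks kept in ZNF143KO (y axes, percent) by signal group of each list (x axis, 1 the weakest of 5), for chromosome 19 (red) and chromosome 18 (blue), with exact 95% intervals over peaks. The chromosomes part in the middle groups for ZNF143 kept at 24 h (46.0% against 26.8% in group 3) and come together in group 5 (91.6% against 87.2%).

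Both classes of ZNF143 peak contributed. The class without CTCF is that with no CTCF peak called at 0 h. How many of its sites had CTCF that was not called was not tested. Of the 0 h ZNF143 peaks without CTCF, 794 of 1258 were kept on chromosome 19 (63.1%, 60.4 to 65.8) and 112 of 223 on chromosome 18 (50.2%, 43.5 to 57.0), against 57.6% over chromosomes 1 to 22 and X, a difference of 12.9 points (adjusted p = 4.5e-04, Fisher's exact test). Of those with CTCF, 354 of 920 were kept on chromosome 19 (38.5%, 35.3 to 41.7) and 95 of 368 on chromosome 18 (25.8%, 21.4 to 30.6), against 31.9%, a difference of 12.7 points (adjusted p = 2.2e-05, Fisher's exact test). Chromosome 19 thus had both the higher retention in each class and more of its ZNF143 in the class that was kept more often. For the CTCF-bound class the difference was 5.06 points after standardising to signal (adjusted p = 0.0908, exact stratified test) and -4.49 points with a reciprocal overlap of 50% (adjusted p = 0.383, Fisher's exact test). The reciprocal rule also redefined the class, which became smaller. Under it 76.9% of 0 h ZNF143 peaks on chromosome 19 and 80.5% on chromosome 18 had no CTCF, against 57.8% and 37.7% at 1 bp. The call in that class therefore depends on how both the class and its retention are matched.

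ZNF143 retention was also given by what became of CTCF at the site. Where a 0 h CTCF peak had no 24 h counterpart, ZNF143 was kept at 54 of 297 peaks on chromosome 19 (18.2%, 14 to 23) and 15 of 123 on chromosome 18 (12.2%, 6.99 to 19.3). Where a CTCF peak was still called at 24 h, it was kept at 300 of 623 (48.2%, 44.2 to 52.2) and 80 of 245 (32.7%, 26.8 to 38.9). Median 0 h signals of these ZNF143 peaks also differed, at 8.71 and 14 on chromosome 19 and 7.75 and 12.4 on chromosome 18. The part of signal in this contrast was not tested.

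By signal group the ZNF143 difference was not uniform. In group 1 fewer peaks were kept on chromosome 19 (93 of 475, 19.6%, 16.1 to 23.4) than on chromosome 18 (35 of 111, 31.5%, 23 to 41). Groups 2 to 4 showed the opposite, with more kept on chromosome 19, at 34.0% against 11.2%, 46.0% against 26.8% and 63.5% against 35.4%. In group 5 it was 91.6% (471 of 514, 88.9 to 93.9) against 87.2% (75 of 86, 78.3 to 93.4), with overlapping intervals.

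Along chromosome 19 the share of ZNF143 kept at 24 h ran from 45.7% to 63.1% over the 10 Mb windows, and along chromosome 18 from 16.3% to 43.8%. Without the dense megabases beside the centromeres the ranges overlapped, at 41.5% for the lowest window of chromosome 19 and 43.2% for the highest of chromosome 18. The window with the centromere of chromosome 19 kept 62.9% of 89 peaks. That value rested on the dense megabase at 27000001 to 28000000, where 39 of 48 peaks were kept (81.2%, 67.4 to 91.1). In the other 9 Mb of the window 17 of 41 were kept (41.5%, 26.3 to 57.9). Chromosome 18 had a like megabase beside its centromere, at 18000001 to 19000000, where 20 of 23 peaks were kept (87.0%, 66.4 to 97.2), and its window without it kept 15 of 57 (26.3%, 15.5 to 39.7). Over the whole chromosomes without both megabases, an alternative chosen after the data were seen, 52.1% of 0 h ZNF143 peaks were kept on chromosome 19 and 32.9% on chromosome 18, a difference of 19.1 points (adjusted p = 6.6e-16, Fisher's exact test).

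CTCF itself showed a smaller difference. Of the 0 h CTCF peaks, 630 of 1257 on chromosome 19 were kept at 24 h (50.1%, 47.3 to 52.9) and 259 of 582 on chromosome 18 (44.5%, 40.4 to 48.6), against 44.4% over chromosomes 1 to 22 and X, a difference of 5.62 points (0.708 to 10.5, adjusted p = 0.0313, Fisher's exact test). Standardised to signal it was 6.55 points (adjusted p = 0.00139, exact stratified test). The levels themselves moved with the matching, to 87.1% and 80.4% with lists of equal size and to 9.39% and 5.15% with a reciprocal overlap of 50%, while chromosome 19 stayed the higher. In the 24 h CTCF list the median solved background of chromosome 19 peaks was 0.206 reads at the summit against 1.27 at 0 h, and on chromosome 18 it was 0.166 against 0.970. For ZNF143 on chromosome 19 it was 0.983 at 24 h and 1.04 at 0 h. The part of this background gap in the loss of CTCF peaks was not tested.

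The share of 24 h peaks without a matching 0 h peak depended on how lists were matched. Lists of equal size left out the weaker 0 h peaks, and reciprocal overlap left out pairs of unlike width. Under either, an unmatched 24 h peak could still overlap a called 0 h peak, so neither share counts new peaks. Median CTCF widths were 72 bp at 24 h and 167 bp at 0 h on chromosome 19, and 62 and 177 bp on chromosome 18. For CTCF the unmatched 24 h peaks numbered 5 of 647 on chromosome 19 (0.773%) and 1 of 265 on chromosome 18 (0.377%), against 0.887% over chromosomes 1 to 22 and X, at an overlap of 1 bp. With lists of equal size the CTCF shares were 14.8% and 18.1% (adjusted p = 0.259, Fisher's exact test), and with reciprocal overlap 81.8% and 88.7% (-6.92 points, adjusted p = 0.0164, Fisher's exact test). For ZNF143 they numbered 68 of 1236 on chromosome 19 (5.50%, 4.30 to 6.92) and 21 of 229 on chromosome 18 (9.17%, 5.77 to 13.7), against 8.10%, a difference of -3.67 points (-8.25 to -0.267) that did not pass the threshold after adjustment (adjusted p = 0.0537, Fisher's exact test). With lists of equal size it did (25.2% against 37.1%, -12 points, adjusted p = 5.8e-04, Fisher's exact test), as with reciprocal overlap (29.4% against 37.1%, -7.75 points, adjusted p = 0.0351, Fisher's exact test) and without the dense megabases beside the centromeres (-4.41 points, adjusted p = 0.0195, Fisher's exact test).

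The strongest 0 h sites show both outcomes. The strongest CTCF peak kept on chromosome 19, at 42637290 to 42637526, went from a signal of 31.7 to 12.6, with ZNF143 at 22.4 and 8.66. That of chromosome 18, at 74695335 to 74695589, had CTCF at 30 and 11.5 and ZNF143 at 15.9 and 6.66. Of CTCF peaks lost at 24 h the strongest had a signal of 27.1 on chromosome 19 (8317928 to 8318127) and 25.7 on chromosome 18 (11655383 to 11655595), and at both the 0 h ZNF143 peak (18.4 and 13.4) was also absent. The strongest 0 h ZNF143 peak kept on each chromosome was at the CTCF-free site named above, with a 0 h signal of 30.9 on chromosome 19 and 30.4 on chromosome 18. The strongest lost ZNF143 peak had a signal of 22 on chromosome 19 (7745573 to 7745696) and 21.6 on chromosome 18 (77006620 to 77006747), and both lay at a CTCF peak that was still called at 24 h, with signals of 6.21 and 8.67. On each chromosome the strongest retained ZNF143 site thus had no CTCF, and the strongest lost one had CTCF that was still detected. These are single peaks. Over all ZNF143 peaks with 0 h CTCF, more were kept where CTCF was still called at 24 h (48.2% on chromosome 19, 32.7% on chromosome 18). Where it was not, 18.2% and 12.2% were kept.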

How the data were processed

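The authors deposited 1 narrow-peak list for each of 9 ChIP-nexus libraries. Per the submitters' processing notes, the tools were cutadapt 2.10, Bowtie2 2.3.5.1, SAMtools 1.12, MACS2 2.2.7.1 and deepTools and the build was GRCh37 (hg19). Settings and pooling are not given in the sources used here. The deposited values are the authors' signal (a ratio, fold enrichment over background), −log10 p, −log10 q and a score, which was not used. That the signal has a constant added to both summit count and background was inferred from the values. Read depth is unknown. A relative local background was solved from the deposited ratio and −log10 p under a Poisson model; for 100.0% of peaks the solution matched the deposited −log10 p to within 0.002.

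Peaks of chromosomes 1 to 22 and X overlapping by at least 1 bp counted as shared. Chromosome spans are the highest peak end over the 9 lists. Shares carry exact (Clopper-Pearson) 95% intervals, covering counting error over peaks only. Tests were the exact binomial test (densities), Fisher's exact test (ratios and shares) and an exact conditional test stratified by 10 signal groups, all two-sided, with Benjamini-Hochberg adjustment over the 31 comparisons, or over the comparisons of each alternative. Named peaks are those of highest signal in each class: ZNF143 with or without CTCF, all wild-type CTCF and RAD21, and peaks kept or absent in the knockout and at 24 h. The chromosomes, measures and rules were chosen with earlier results of these data known. RefSeq tables are on GRCh38.p14, so peaks were not assigned to genes and no peak sequence was read. Overlap calls were tested against all pairs for 648 peaks of chromosome 21, with 0 differing. Tests were run in scipy 1.17.1 under Python 3.11.15, with pandas 2.3.3, numpy 2.4.6 and, for plots, matplotlib 3.10.9.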

Additional observations from a re-analysis of the deposited data

Results flagged for a closer look

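Peaks were also called on sequences assigned to chromosome 19 but not placed within it, which the comparisons did not use. They were above the limit of 3 that a count of 0 allows in all 9 lists. In wild-type cells 19 such peaks were called for ZNF143, 32 for CTCF and 26 for RAD21, and in ZNF143KO cells 29 for CTCF and 35 for RAD21. In CTCF-AID cells there were 28 and 30 for ZNF143 at 0 h and 24 h, and 33 and 11 for CTCF. On sequences assigned to chromosome 18 in the same way, each list held 0 peaks. No explanation was tested.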

How the results depend on the processing

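Of 182 alternative values of the 31 results, 161 kept direction and side of the threshold, 9 fell below it, 3 rose above it and 9 changed direction. All density ratios and ratios of ZNF143 to CTCF and RAD21 kept both; over the 9 lists the density ratios ran from 2.18 to 7.07 at a −log10 q of at least 5, 2.11 to 7.34 with peaks within 1 kb merged, 2.04 to 9.07 in the stronger 50%, 2.18 to 7.59 without the dense megabases beside the centromeres (chosen after the data were seen) and 1.87 to 6.11 over occupied windows. The share of ZNF143 without CTCF in the wild type differed by 8.76 to 24.5 points. The cause of the changes below was not tested.

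A reciprocal overlap of 50% turned the difference for ZNF143 without CTCF at 0 h (-3.68 points), wild-type CTCF kept in the knockout (1.44), RAD21 kept (-0.167), CTCF-bound ZNF143 kept at 24 h (-4.49) and 24 h CTCF absent at 0 h (-6.92). It weakened CTCF with RAD21 (-1.89) and strengthened 24 h ZNF143 absent at 0 h (-7.75). The CTCF-bound class was there defined by reciprocal overlap too. Summits within 50 bp turned RAD21 kept (-0.00141) and 24 h CTCF absent at 0 h (-0.355). Lists of equal size turned 24 h CTCF absent at 0 h (-3.28), weakened CTCF with RAD21 (-2.73) and strengthened 24 h ZNF143 absent at 0 h (-12.0). A −log10 q of at least 5 turned RAD21 kept (-0.0874) and weakened CTCF with RAD21 (-2.33). In the stronger 50%, CTCF kept in the knockout differed by 0 points, as every peak was kept, CTCF with ZNF143 by 2.74, RAD21 without CTCF by -0.242 and wild-type ZNF143 found at 0 h by 1.95, none past the threshold. Standardised to signal, CTCF-bound ZNF143 kept at 24 h (5.06) and wild-type CTCF found at 0 h (2.85) were below it. Without the dense megabases 24 h ZNF143 absent at 0 h was past it (-4.41). No paired analysis was possible because each group has 1 library.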
